A study of Danio rerio with 8 samples.

Results

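The genes described are 8 regulators and effectors of the cell cycle and of DNA replication, chosen by Ensembl gene ID: pcna, mcm5, ccna2, cdk1, ccnb1, plk1, top2a and mki67. Of these 8 IDs, 7 were listed among the 22416 genes of the tables. The ID given for plk1 had no row in them, and the gene name table used here gives plk1 to another ID, ENSDARG00000058471. That ID was added by its symbol after this was seen. It is described beside the 7 and is not counted with them.

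RNA was sequenced from zebrafish melanomas harvested at an age of 10 to 12 weeks. All 8 tumours arose on the strain tp53m214K/m214k; mitfa-/-; nras G12D, so controls and test tumours shared a mutant p53, the loss of mitfa and an activated NRAS. Control tumours carried Tg(mitfa:egfp) (n = 3) and test tumours Tg(mitfa:dgat1a) (n = 5). In both groups the mitfa promoter, active in the pigment cell lineage, drove the transgene through miniCoopR, a vector that couples a mitfa rescue gene to a gene of interest. The series title speaks of stimulated cell growth, and the comparison asks whether transcripts of dividing cells differed in amount between the groups. The labels do not say whether each sample is a separate fish. The p-values for group differences set the difference against the spread between these samples, taken as independent. They would not hold for fish if some samples shared one.

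A cell that commits to division first makes the enzymes of DNA replication, in mammals under the E2F transcription factors, and later the proteins of G2 and mitosis, under B-Myb and FOXM1. Transcripts of the first set peak around S phase and those of the second around mitosis, so a tissue with many cycling cells holds more of both. Activated RAS signalling pushes cells into the cycle, and p53 holds damaged cells back through its target cdkn1a.

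Libraries held 20936089 to 26865735 reads on the listed genes, and the fewest reads of any member in a tumour were 785, for ccnb1 in egfp replicate 2. Levels are given in fpm, a per-million signal that the authors scaled by a factor per library. Of 2 IDs named DGAT1 in the gene name table, ENSDARG00000103503 measured 39.8, 75.1 and 26.5 fpm in the egfp tumours and 2223 to 4159.9 in the dgat1a tumours, as the labels have it. The melanocyte genes sox10 (667 to 1116 fpm), tyr (114 to 510.5), dct (13.0 to 107) and pmela (1398 to 13275) were present in all 8 tumours. egfp replicate 1 stood apart from the rest in its keratinocyte markers. The sum of krt4 and krt5 was 22.2 fpm there and 740.4 to 2934 in the other 7. egfp replicate 1 also had the most listed genes without a read, 1232 against 353 to 777 in the other 7.

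None of the 7 members was called different between the groups by any test run. With limma, 0 of 7 passed a Benjamini-Hochberg adjusted p under 0.05, in a comparison where 0.0534% of the 16853 genes tested did, and 0 of 7 had an unadjusted p under 0.05, where 15% of all genes did. The edgeR quasi-likelihood test called 0 of 7 (0.0178% of all genes) and DESeq2 0 of 7 (5.14% of all genes), with 0 of 7 at an unadjusted p under 0.05 in either (16.5% and 19% of all genes). In the authors' deposited table the adjusted p was under 0.05 for 0 of 7, against 3.67% of its genes. The values of the groups overlapped in all 7, whereas they did not overlap in 10.4% of the genes tested. The median log2 fold change, dgat1a against egfp, was 0.082 over the 7 members and 0.044 over all genes tested. Without egfp replicate 1, limma also called 0 of 7, in a fit that called 5 of the 16853 genes. All 7 passed the filter of a mean of at least 1 fpm.

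**Figure D1:**
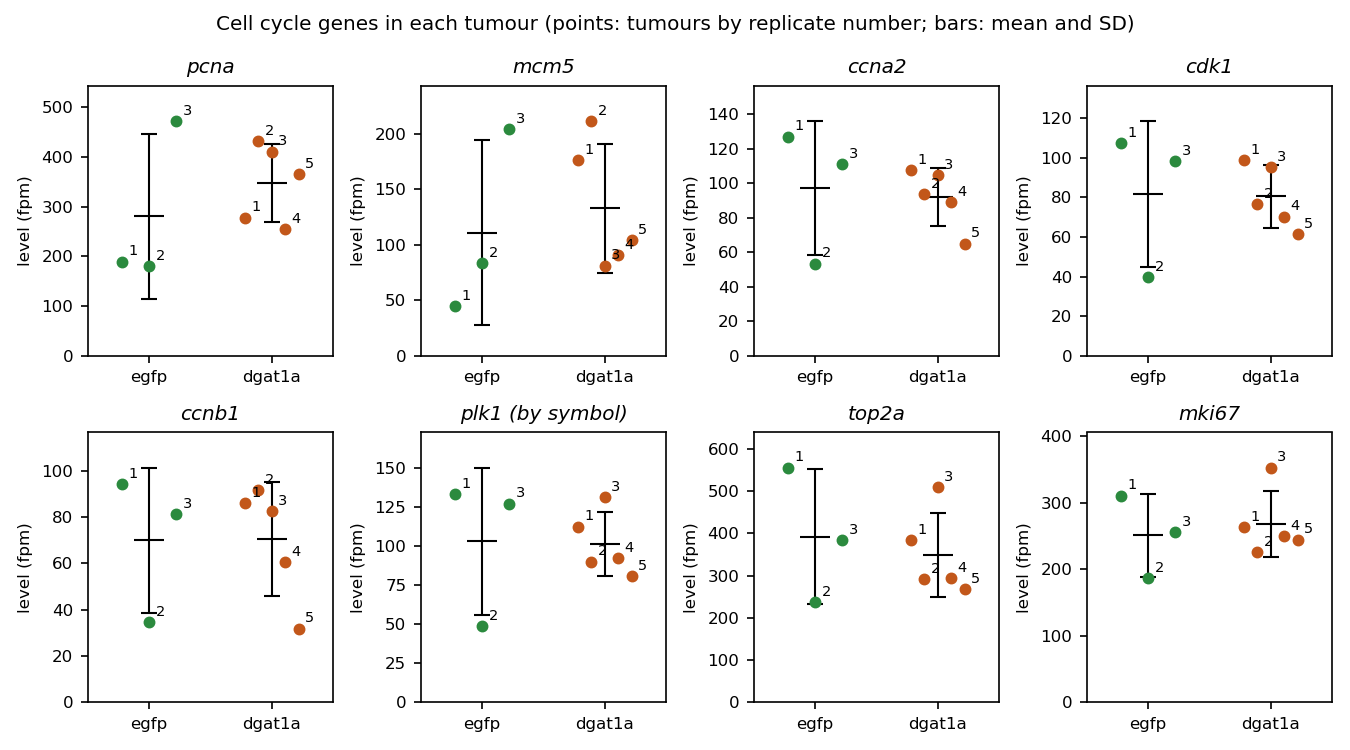
Level in fpm of the 7 members and of plk1, taken by its symbol, in each tumour, with replicate numbers beside the points and bars for the mean and SD of 3 egfp and 5 dgat1a tumours. The groups overlap in every panel, and in most of them the egfp points reach both higher and lower than the dgat1a points.

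The replication genes came first. The product of pcna (ENSDARG00000054155) is the sliding clamp that holds DNA polymerase on its template. Its level was 189, 181 and 472 fpm in egfp replicates 1 to 3 and 278, 431, 411, 255 and 365 in dgat1a replicates 1 to 5. The highest and the lowest tumours were both egfp, and all 5 dgat1a tumours lay between them. The means were 281 ± 165 fpm (SD, n = 3) and 348 ± 78.5 (SD, n = 5). On the log2 scale the dgat1a tumours were 0.43 higher (standard error 0.34, 95% interval -0.34 to 1.20, limma adjusted p = 0.557).

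The product of mcm5 (ENSDARG00000019507) is a subunit of the MCM2-7 helicase, which opens DNA at replication origins. It measured 44.7, 83.4 and 205 fpm in egfp replicates 1 to 3 and 177, 211, 81.2, 90.8 and 104 in dgat1a replicates 1 to 5. Its levels spanned 4.73-fold over the 8 tumours, the widest range among the members. Each group held low and high tumours, with egfp replicate 1 the lowest and dgat1a replicate 2 the highest of all. The means were 111 ± 83.4 fpm (SD, n = 3) and 133 ± 57.8 (SD, n = 5), and the log2 fold change was 0.43 (standard error 0.49, interval -0.68 to 1.54, limma adjusted p = 0.690). It turned to -0.081 without egfp replicate 1.

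Cyclin A2, from ccna2 (ENSDARG00000011094), activates cyclin-dependent kinases in S phase and G2. Its transcript measured 127, 53.5 and 111 fpm in egfp replicates 1 to 3 and 108, 93.6, 105, 88.9 and 65.0 in dgat1a replicates 1 to 5. egfp tumours held both the first and second highest levels as well as the lowest. The means were 97.2 ± 38.7 fpm (SD, n = 3) and 92.1 ± 17.0 (SD, n = 5), with a log2 fold change of -0.0071 (standard error 0.30, interval -0.69 to 0.68, limma adjusted p = 0.993).

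The kinase that cyclins A and B activate for entry into mitosis is encoded by cdk1 (ENSDARG00000087554). It measured 107, 39.6 and 98.1 fpm in egfp replicates 1 to 3 and 98.6, 76.6, 95.1, 70.2 and 61.6 in dgat1a replicates 1 to 5. The dgat1a tumours again fell inside the range of the egfp tumours. The means were 81.7 ± 36.7 fpm (SD, n = 3) and 80.4 ± 16.0 (SD, n = 5). On the log2 scale the difference was 0.082 (standard error 0.33, interval -0.67 to 0.83, limma adjusted p = 0.926), and it was -0.028 in edgeR.

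Cyclin B1, from ccnb1 (ENSDARG00000051923), is the partner of Cdk1 in mitosis. It measured 94.1, 34.6 and 81.2 fpm in egfp replicates 1 to 3 and 86.0, 91.7, 82.5, 60.5 and 31.8 in dgat1a replicates 1 to 5. One tumour of each group, egfp replicate 2 and dgat1a replicate 5, lay far under the others. The means were 70.0 ± 31.3 fpm (SD, n = 3) and 70.5 ± 24.6 (SD, n = 5), and the log2 fold change was 0.040 (standard error 0.42, interval -0.91 to 0.99, limma adjusted p = 0.973). Without egfp replicate 2 it was -0.40.

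Polo-like kinase 1, from plk1, acts in spindle assembly and mitotic exit. By its symbol it measured 133, 48.7 and 127 fpm in egfp replicates 1 to 3 and 112, 90.0, 131, 92.2 and 80.6 in dgat1a replicates 1 to 5. Its order of tumours resembled that of cdk1, with egfp replicate 1 highest and egfp replicate 2 lowest. The log2 fold change was 0.089 (standard error 0.34, interval -0.67 to 0.85, limma adjusted p = 0.920).

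DNA topoisomerase II alpha, from top2a (ENSDARG00000024488), untangles sister chromatids before they part. It measured 555, 237 and 384 fpm in egfp replicates 1 to 3 and 384, 291, 509, 294 and 267 in dgat1a replicates 1 to 5. egfp replicate 1 and dgat1a replicate 3 were the highest 2 tumours. The means were 392 ± 159 fpm (SD, n = 3) and 349 ± 99.8 (SD, n = 5), and the log2 fold change was -0.13 (standard error 0.31, interval -0.83 to 0.58, limma adjusted p = 0.869).

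Ki-67, from mki67 (ENSDARG00000091150), coats mitotic chromosomes and is the usual marker of cycling cells in tumour pathology. It measured 311, 187 and 257 fpm in egfp replicates 1 to 3 and 264, 227, 353, 249.9 and 245 in dgat1a replicates 1 to 5. dgat1a replicate 3 exceeded every egfp tumour, and the other 4 dgat1a tumours lay within the egfp range. With means of 252 ± 62.3 fpm (SD, n = 3) and 268 ± 49.6 (SD, n = 5), it had the narrowest interval of the 7, from -0.40 to 0.61 around a log2 fold change of 0.10 (standard error 0.23, limma adjusted p = 0.849).

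**Figure D2:**
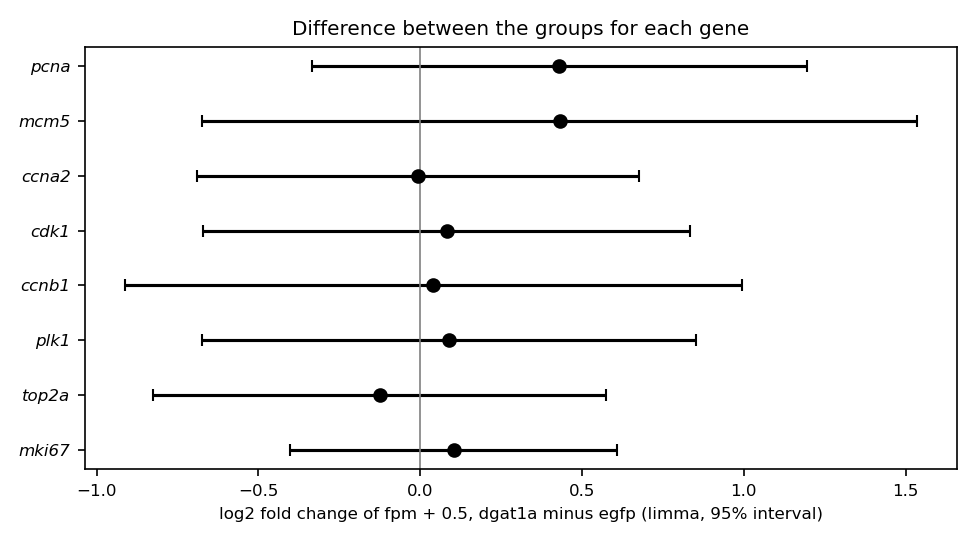
Log2 fold change of fpm + 0.5, dgat1a minus egfp, from limma over 8 tumours; points are estimates and bars 95% intervals. All 8 intervals include 0, from the narrowest for mki67 (-0.40 to 0.61) to the widest for mcm5 (-0.68 to 1.54).

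The 95% intervals give the range of differences that these 3 and 5 tumours leave possible, if both groups share a common variance for each gene. For mki67 they reached from 0.756-fold to 1.53-fold, for ccnb1 from 0.531-fold to 1.99-fold and for pcna from 0.792-fold to 2.29-fold. The data are compatible with any difference inside these bounds, and the groups are not shown to be alike. The SD of log2 levels was larger in the egfp group for 7 of 7 members. Bounds that do not assume a common variance may therefore be wider, and none were computed. In bulk tumour RNA, fewer dividing cells and less of a transcript in each dividing cell cannot be told apart. Among the 7 members, pcna alone kept its sign in each of 19 other fits.

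In the authors' deposited table the log2 fold changes of the 7 members lay between -0.15 for top2a and 0.28 for pcna. There, in the authors' deposited table, the smallest adjusted p among them was 0.740, for pcna. The deposited fold changes need not be on the scale of the limma estimates. For DGAT1 (ENSDARG00000103503) the deposited log2 fold change was 5.45, against 6.01 by DESeq2 on recovered reads and 6.08 by limma.

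The members varied more among the egfp tumours than among the dgat1a tumours. The SD of log2 levels was larger in the egfp group for 7 of 7 members, with medians of 0.77 and 0.34 log2 units. Over all genes tested the medians were 0.44 and 0.41, and the egfp SD was the larger in 56.6%. The 7 members share the same libraries and several move together, so they are not 7 separate observations, and this difference in spread was not tested. It rests on 3 egfp tumours. egfp replicate 2 was the lowest of all 8 tumours in 5 of 7 members, and egfp replicate 1 the highest in 4 of 7 and the lowest in mcm5. The same shares over all genes tested were not computed.

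Several members varied together across the tumours. Relations were computed for the 28 pairs among the 8 genes, each over the same 8 tumours, with exact permutation p-values adjusted by Benjamini-Hochberg over the 28. ccna2 and cdk1 had a Pearson's r of 0.973 (exact permutation p = 4.96e-05, adjusted p = 0.00139) and a Spearman's rho of 0.976 (exact permutation p = 0.000397, adjusted p = 0.00556). Without the 2 tumours farthest from the median of ccna2, egfp replicate 2 and dgat1a replicate 5, r was 0.953. Among the 15 pairs of ccna2, cdk1, ccnb1, plk1, top2a and mki67, r ran from 0.59 to 0.982, and 12 of the 15 had an adjusted p of r under 0.05 (8 of the 15 by rho). The share of pairs among all genes that would pass was not computed, so these counts are not shown to be unusual. Relations between members were not among the planned results.

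The 12 pairs did not all hold equally without their farthest 2 tumours. Their r then lay between 0.415 and 0.953. It was 0.415 for ccnb1 with plk1, 0.604 for cdk1 with mki67, 0.64 for ccnb1 with ccna2 and 0.651 for ccnb1 with cdk1. The tumours left out of these pairs were egfp replicate 2 and dgat1a replicate 5. Leaving out the farthest tumours also narrows the range of levels, so a lower r does not tell how far a relation rests on those 2. All values of a tumour share 1 scaling factor, which can add to any such relation, and its part was not tested.

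No such relation was found between the replication genes pcna and mcm5 and the remaining 6. In the 12 pairs of pcna or mcm5 with one of the other 6 genes, r ran from -0.33 to 0.40, and 0 of 12 had an adjusted p under 0.05 (exact permutation, smallest adjusted p = 0.551 for r and 0.493 for rho). Without the 2 tumours farthest from the median of the first gene of a pair, r ran from -0.73 for mki67 with mcm5 to 0.74 for top2a with mcm5. These values thus depend on which tumours are included. Between pcna and mcm5 themselves r was 0.68 (exact permutation p = 0.0669, adjusted p = 0.125) and rho 0.667 (exact permutation p = 0.0831, adjusted p = 0.155). Without egfp replicates 1 and 2, the farthest in pcna, r was 0.36.

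**Figure D3:**
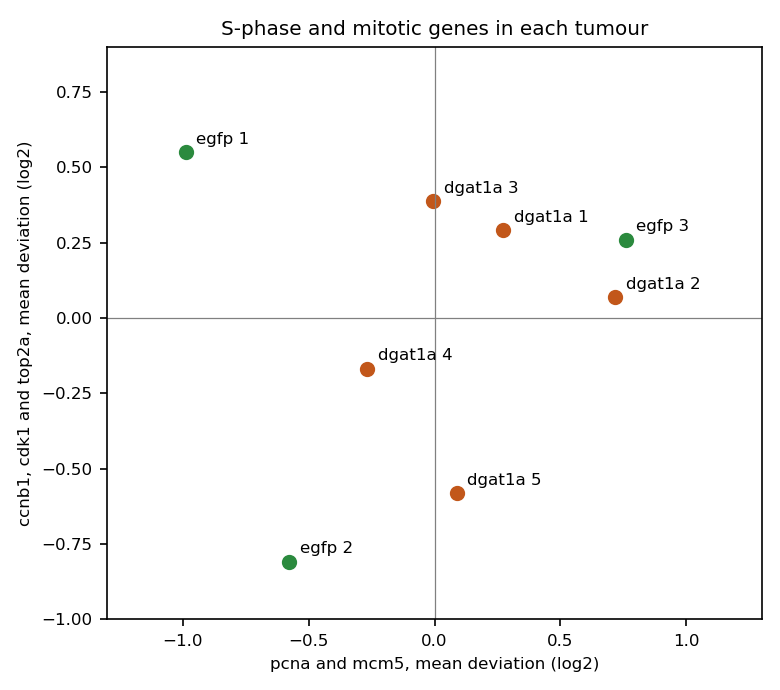
Each point is a tumour; the horizontal axis is the mean log2 deviation of pcna and mcm5 from their own means over the 8 tumours, and the vertical axis that of ccnb1, cdk1 and top2a. egfp replicate 1 sits alone at the upper left (-0.99 and 0.55), egfp replicate 2 at the lower left (-0.58 and -0.81) and egfp replicate 3 at the right (0.76 and 0.26).

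Set against each other within a tumour, the 2 kinds of gene gave a balance that does not depend on scaling between libraries: the mean log2 level of ccnb1, cdk1 and top2a less that of pcna and mcm5. The balance was 0.94, -0.83 and -1.09 log2 units in egfp replicates 1 to 3 and -0.58, -1.25, -0.20, -0.50 and -1.27 in dgat1a replicates 1 to 5. egfp replicate 1 was the only tumour above 0. The other 2 egfp tumours lay within the range of the dgat1a tumours. The group means were -0.33 ± 1.11 (SD, n = 3) and -0.76 ± 0.48 (SD, n = 5), a difference smaller than the spread between egfp tumours, and no test was made.

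The 2 S-phase genes also parted from each other in some tumours. The ratio of their fpm, which is not a ratio of molecules because gene length is not accounted for, was 4.23 in egfp replicate 1 and 5.05 in dgat1a replicate 3. It lay between 1.57 and 3.50 in the other 6. In dgat1a replicate 3 pcna was the third highest of the 8 tumours and mcm5 the second lowest.

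Further genes of the same pathways were taken by symbol from lists. Of 30 symbols for G1/S and DNA replication, 30 matched 32 IDs, and 31 IDs were tested. limma called 0 higher and 0 lower (0.0534% of all genes in either direction). At an unadjusted p under 0.05 there were 1 higher and 2 lower (15% of all genes). edgeR and DESeq2 called 0 (0.0178% and 5.14% of all genes). The median log2 fold change of the list was 0.0049, with 16 positive and 15 negative values, against 0.044 over all genes. The largest differences by size were those of rrm2, cdc6 and e2f1. The licensing factor cdc6 measured 6.52, 11.7 and 19.3 fpm in egfp tumours and 14.7 to 35.3 in dgat1a tumours, a difference of 0.99 log2 units (standard error 0.38, limma adjusted p = 0.290). The transcription factor e2f1 measured 19.2, 13.2 and 41.04 fpm in egfp tumours and 9.45 to 14.4 in dgat1a tumours (log2 fold change -0.94, standard error 0.35, limma adjusted p = 0.278). The symbol rrm2, for a subunit of ribonucleotide reductase, has 2 IDs. ENSDARG00000020711 differed by -1.45 log2 units (standard error 1.97, limma adjusted p = 0.741) and by -0.28 to -3.42 when single tumours were left out. ENSDARG00000078069 differed by 0.74 (standard error 0.53), and the sum of both was 54.6 to 95.4 fpm in egfp and 84.4 to 128 in dgat1a tumours.

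The other subunits of the MCM helicase were looked at after their values were seen. egfp replicate 1 was the lowest tumour in 5 of the 6 subunit genes, mcm5 included, and egfp replicate 3 the highest in 4 of 6. The same shares over all genes tested were not computed. mcm4 measured 44.5, 152 and 405 fpm in egfp replicates 1 to 3 and 127 to 200.3 in dgat1a tumours. mcm2 measured 102, 258 and 453 fpm in the egfp tumours and 153 to 417 in dgat1a tumours. The low mcm5 of egfp replicate 1 was thus shared by all the other subunits but mcm7, whose lowest level of 113 fpm was in dgat1a replicate 3.

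For G2 and mitosis, 25 of 30 symbols matched an ID and all 25 were tested. limma called 0 higher and 0 lower (0.0534% of all genes in either direction). At an unadjusted p under 0.05 there were 0 higher and 1 lower (15% of all genes). edgeR and DESeq2 called 0 (0.0178% and 5.14% of all genes). The median log2 fold change was -0.017, with 10 positive and 15 negative values. Over all genes tested it was 0.044, with 53.6% positive. The mitotic kinesin kif20a measured 55.2, 5.86 and 18.5 fpm in egfp replicates 1 to 3 and 2.55 to 11.7 in dgat1a tumours (log2 fold change -1.54, standard error 0.67, limma adjusted p = 0.325). The spindle assembly factor tpx2 measured 310.1, 71.2 and 273 fpm in egfp tumours and 81.05 to 157 in dgat1a tumours (-0.73, standard error 0.46, limma adjusted p = 0.464). The activator of the anaphase-promoting complex cdc20 differed by -0.56 log2 units (standard error 0.45, limma adjusted p = 0.557). When single tumours were left out these differences ran from -0.75 (without egfp replicate 1) to -2.32 (without egfp replicate 2) for kif20a, from -0.35 to -1.41 for tpx2 and from -0.23 to -1.13 for cdc20. In 22 of these 25 genes egfp replicate 2 was the lowest tumour, and egfp replicates 1 and 3 were each the highest in 9. How often these tumours were the extremes over all genes tested was not computed. The pattern is thus not shown to be particular to these genes.

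**Figure D4:**
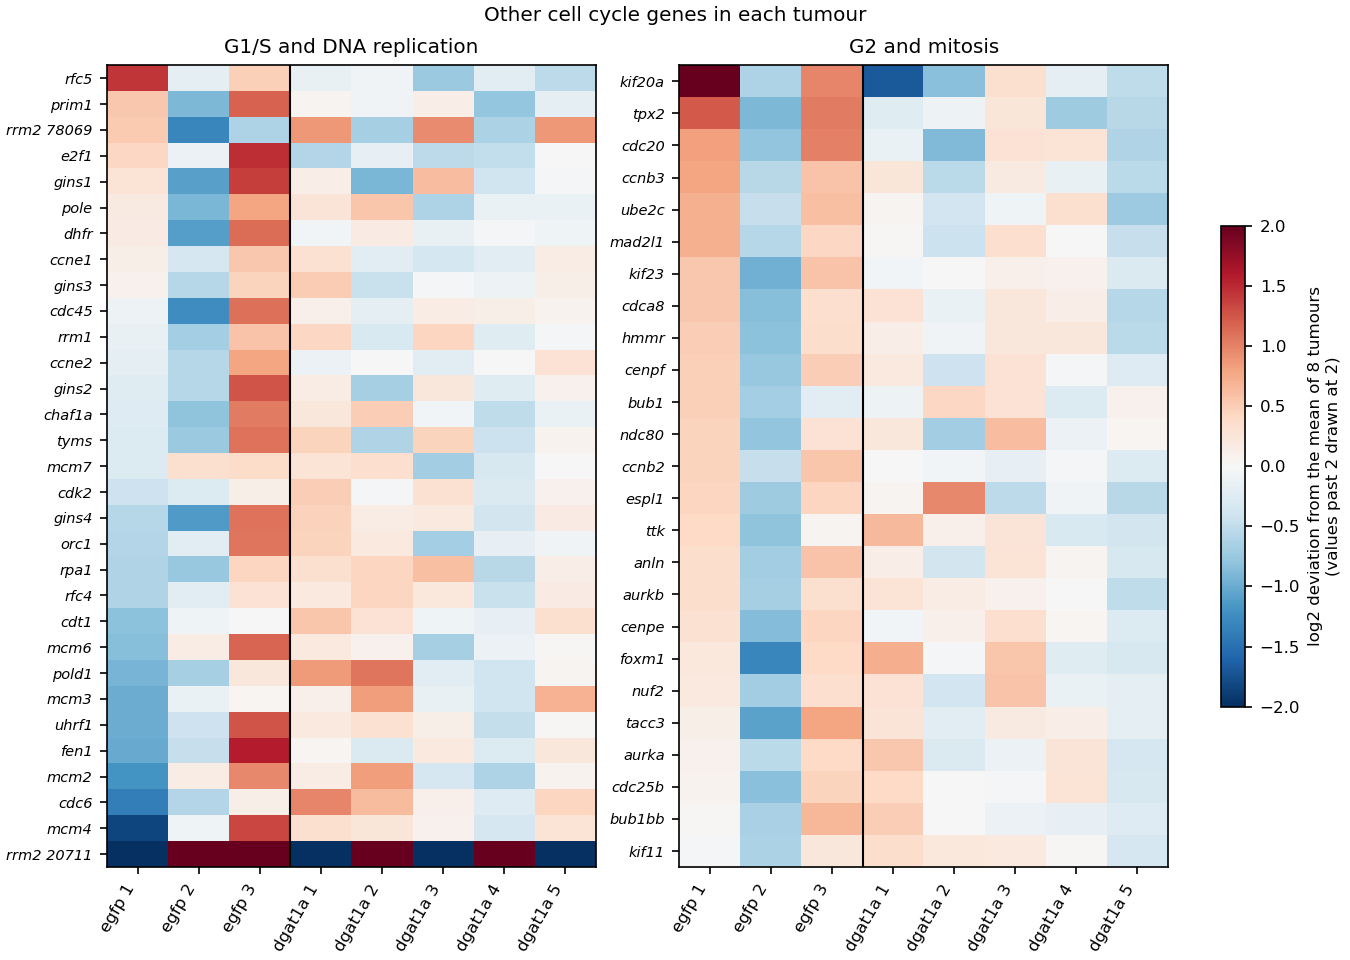
Log2 deviation of each tested list gene (rows) from its mean over 8 tumours (columns; a line parts 3 egfp from 5 dgat1a tumours); the last 5 digits of the ID tell the 2 rrm2 rows apart. egfp replicate 2 is the lowest tumour in 22 of 25 genes of G2 and mitosis, and egfp replicate 3 the highest in 21 of 31 genes of G1/S and DNA replication. Such shares over all genes tested were not computed.

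Inhibitors of the cycle and p53 targets gave 10 matched symbols of 11, of which 9 were tested. limma called 0 of them, with 0 at an unadjusted p under 0.05 (0.0534% and 15% of all genes). edgeR and DESeq2 called 0 (0.0178% and 5.14% of all genes). The median log2 fold change was 0.50, with 7 positive and 2 negative values. Over all genes tested it was 0.044, with 53.6% positive. The kinase inhibitor gene cdkn1ca measured 4.76, 39.3 and 4.29 fpm in egfp replicates 1 to 3. In dgat1a replicates 1 to 5 it measured 80.5, 18.4, 8.80, 74.4 and 39.2 fpm. It differed by 1.75 log2 units (standard error 0.88, limma adjusted p = 0.378), and by 1.21 to 2.74 when single tumours were left out. cdkn2c differed by -0.67 (standard error 0.49, limma adjusted p = 0.528), and by -0.18 to -1.02 when single tumours were left out. The p53 antagonist and target mdm2 measured 89.2, 109.8 and 322 fpm in egfp replicates 1 to 3 and 1238, 474, 151, 221 and 286 in dgat1a replicates 1 to 5 (1.27, standard error 0.67, limma adjusted p = 0.394). dgat1a replicate 1 exceeded every other tumour, while dgat1a replicates 3 to 5 lay within the egfp range. In that tumour the p53 targets cdkn1a (37.9 fpm) and ccng1 (788 fpm), chosen after their values were seen, were also at their highest of the 8, while the p53 target btg2 (113 fpm) was higher in egfp replicate 1 and dgat1a replicate 3. In dgat1a replicate 1, 0 of the 7 members were among the 2 lowest of the 8 tumours and 1 of the 7 among the 2 highest. Only egfp replicate 1 exceeded this tumour in cdk1, and only 2 tumours did in each of ccnb1, ccna2, mki67, top2a and mcm5. In pcna, egfp replicate 3 and dgat1a replicates 2, 3 and 5 were higher. The mean log2 deviation of the 7 members was 0.24 in dgat1a replicate 1. Over the 8 tumours it ran from -0.69 in egfp replicate 2 to 0.37 in egfp replicate 3. A relation between these p53 targets and the members was not tested.

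The genes whose levels most resembled the mean standardised profile of the 7 members over the 8 tumours were arhgef39, a guanine nucleotide exchange factor (Pearson's r 0.967), spc24, a kinetochore subunit (0.958), foxm1 (0.952), plk1 by its symbol (0.951) and kntc1, a kinetochore gene (0.949). They were picked for this likeness out of all tested genes, so r is a description. foxm1 measured 23.7, 7.89 and 26.8 fpm in egfp replicates 1 to 3.

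Markers of other cell types also differed between the tumours, and their part in the members' levels was not tested. The sum of 2 keratinocyte markers was 2766 fpm in egfp replicate 2 and 2934 in dgat1a replicate 5, the tumours with the lowest mitotic genes, but also 2915 in dgat1a replicate 2, and 22.2 in egfp replicate 1. The sum of 2 erythroid markers was 659.6 fpm in egfp replicate 1, 201 and 323 in the other egfp tumours and 50.8 to 278 in the dgat1a tumours. The sum of 4 melanocyte markers ran from 2745 to 3659 fpm in the egfp tumours and from 2523 to 14866.5 in the dgat1a tumours. Its largest part in each tumour was pmela, at 1433 to 2373 fpm in the egfp and 1398 to 13275 in the dgat1a tumours. The means of sox10 were 957 and 947 fpm (log2 fold change 0.014, limma adjusted p = 0.983). For pmela, dct and tyr the log2 fold changes were 1.45, 1.18 and 0.91 (limma adjusted p = 0.328, 0.433 and 0.309). The sum of 3 endothelial markers overlapped between the groups, at 51.4 to 105 and 50.2 to 98.6 fpm, as did that of 2 muscle markers, at 0.463 to 3.53 and 0.911 to 200.03. Of the macrophage and neutrophil markers, 2 matched, with sums of 105 to 190 and 157 to 325 fpm. Nearly all of these sums was marco, at 105 to 189 fpm in the egfp and 156 to 324 in the dgat1a tumours. The other, lyz, had a mean under 1 fpm and was not tested. The markers tested were 4 melanocyte, 1 macrophage, 2 muscle, 2 keratinocyte, 3 endothelial and 2 erythroid genes. Of these, limma called 0 (0.0534% of all genes). DESeq2 called 1 of the 4 melanocyte markers, pmela (adjusted p = 0.0455), and 1 of the 2 muscle markers, ckma (adjusted p = 0.0258), against 5.14% of all genes. In the authors' deposited table their adjusted p was 0.0687 and 0.180. ckma measured 175, 45.4 and 59.0 fpm in dgat1a replicates 1, 3 and 5 and 0.793 and 0.911 in replicates 2 and 4. In the egfp tumours it measured 0.425 to 3.26 fpm. No listed gene had fewer than 16 reads over the 8 tumours, so no matched marker could be at 0 in all of them.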

How the data were processed

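The submitters' processing notes name STAR 2.5.3, featureCounts 1.6.2, DESeq2 1.14.1 and GRCz11, without roles; annotation, strand setting and gene filter are not given in the sources used here. The authors deposited a per-million signal (fpm) per gene and tumour, whose columns summed to between 907747 and 1053608. 100% of its values were whole multiples of 1 read within 0.01, and reads were recovered on that basis. The authors also deposited values after a variance-stabilising step, in log2-like units, and a comparison with a mean signal, a log2 fold change, its standard error, a score, a p-value and an adjusted p-value per gene.

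limma 3.58.1 (R 4.3.3; intensity trend, two-sided) was run on log2(fpm + 0.5), which understates changes of low genes, for 16853 genes whose mean reached 1 fpm; p-values were Benjamini-Hochberg adjusted over all of them at a threshold of 0.05. edgeR 4.0.16 (quasi-likelihood, TMM) and DESeq2 1.42.0 on recovered reads, pseudocounts of 0.1 and 1, no filter, a minimum of 5 fpm, the variance-stabilised values, quantile normalization, no trend, a replicate block and leaving out each tumour were alternatives. The code was tested on simulated data with 200 changed genes.

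Groups came from sample titles. The members and lists were chosen with earlier results of these data known. All members are named; of each list, genes past the test or else the 3 largest differences; of genes resembling the members, the 5 with the highest r. Symbols, matched without regard to letter case, came from a table that names 21017 of the 22416 IDs and gives 2 IDs each to mcm6 and rrm2. Reads of such copies, and of overlapping genes, may be shared. Promoter and protein sequences and the planned motif search were not used here.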

Additional observations from a re-analysis of the deposited data

How the results depend on the processing

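The count of members called was 0 in each of the 19 other fits (limma, edgeR or DESeq2) and in the limma fit with plk1 added by its symbol. Few genes of any kind were called in most of these fits, so a count of 0 says little there. DESeq2 called 866 of 16853 genes, limma without egfp replicate 2 called 55, and limma with the replicate block 0. The rest of the fits called between 3 and 11 genes. The number of members at an unadjusted p under 0.05 was also 0, except without egfp replicate 3, where it was 2 (pcna and mcm5), in a fit in which 14.6% of all genes were under it. No member had groups that did not overlap, in fpm or in the variance-stabilised values. Adding plk1 changed the difference in balance between the groups from -0.43 to -0.41.

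Of 152 values of the 8 genes under other settings, 129 kept the sign of the log2 fold change, and none of the 23 that did not was called. With quantile normalization ccna2 was at 0.0093. With edgeR cdk1 was at -0.028 and plk1 at -0.028, and with DESeq2 they were at -0.019 and -0.020. No label says what a shared replicate number means, and the deviations of same-numbered tumours correlated by 0.24, 0.073 and 0.0071. With the replicate block on tumours 1 to 3 of each group, ccna2 was at 0.16 and top2a at 0.058, the same values as without the block in those 6 tumours; DGAT1 then missed the threshold (6.20, limma adjusted p = 0.0765). Leaving out each tumour in turn gave ranges of 0.19 to 0.88 for pcna, -0.40 to 0.31 for ccnb1, -0.39 to 0.23 for ccna2, -0.37 to 0.34 for cdk1, -0.095 to 0.27 for mki67, -0.44 to 0.17 for top2a, -0.081 to 1.01 for mcm5 and -0.38 to 0.34 for plk1. The causes were not tested. The 9 list genes named by the rule (rrm2 by ENSDARG00000020711) kept their sign in all 19 fits and were called in none. They were picked for the largest differences in these same tumours, so their kept sign is only a description. Each member had at least 785 reads in each tumour, far above the floor of 3 reads.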

Other observations

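Ribonucleotide reductase makes the deoxynucleotides for DNA replication, and its small subunit gene rrm2 is induced in S phase. Of the 2 IDs with that symbol, ENSDARG00000020711 held 638, 1254, 1049 and 1155 reads in egfp replicates 2 and 3 and dgat1a replicates 2 and 4. In egfp replicate 1 and dgat1a replicates 1, 3 and 5 it held 3, 2, 5 and 4 reads. The other ID, ENSDARG00000078069, held 600, 1111, 997 and 1161 reads in the first 4 of these tumours and 2164, 2764, 2774 and 3165 in the last 4. The reads were thus divided nearly evenly between the IDs in 4 tumours and lay almost wholly on 1 ID in the other 4, which include tumours of both groups. The sum of both IDs was 95.4, 54.6 and 91.3 fpm in egfp replicates 1 to 3 and 122, 85.3, 128, 84.4 and 121 in dgat1a replicates 1 to 5, with egfp replicate 2 again the lowest. The values of the single IDs are uncertain where the copies share reads. This pattern was chosen after its values were seen.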
